A study of Danio rerio with 13 samples.

Results

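The Hox genes encode homeodomain transcription factors that give cells their position along the head-to-tail axis. They were taken from a gene expression dataset of zebrafish (Danio rerio) brains as every gene whose name began with hox, one of the letters a to d and a number. Of 32105 genes in the count table, 47 met this rule, and 31 of them had 10 or more counts in total and were kept. The other 16 had 0 to 8 counts in total and all belonged to paralogue groups 9 to 13, with hoxa13b (8 counts) just outside the limit and HOXC10 (11 counts) just inside it.

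The 13 brains came from male fish of the AB strain aged 3 months, and each fish gave 1 library. There were 3 tert-/- fish and 5 tert+/- fish, which carried 2 copies or 1 copy of a mutant allele (line tert hu3430) of tert, the gene for the reverse transcriptase of telomerase, and 5 wild-type (tert+/+) fish. The mutation is carried in every cell of the fish. The labels name the brain as the tissue and do not say where the hindbrain was separated from the spinal cord. Each library is named by its genotype and a number, and equal numbers do not pair fish.

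Hox genes lie in clusters (A to D), and genes at the same place in different clusters form a paralogue group, numbered from the head end. Within a cluster the lower-numbered groups are in general, though not without exception, expressed from more anterior limits. Groups 1 to 4 are known for their borders in the hindbrain, whereas the higher groups reach their anterior limits in the most posterior hindbrain or in the spinal cord. The forebrain and midbrain lie in front of these borders. Many neurons keep the Hox code of their origin in adult life.

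The libraries held 22008289 to 32380953 counts, of which 43 to 3425 fell on Hox genes. Expression is given as CPM, the usual unit of counts relative to library size, scaled with TMM factors, and levels of different genes are compared only as CPM per kilobase of gene length. The tert transcript, checked first, averaged 8.02 ± 3.53 CPM in tert-/- brains (SD, n = 3), 5.70 ± 1.92 CPM in tert+/- brains (SD, n = 5) and 2.55 ± 0.776 CPM in wild-type brains (SD, n = 5). The mutant transcript is therefore present, and its level cannot serve as a check of a loss of transcript. The neuronal marker ELAVL3 was at 257.9 to 422.2 CPM in the 13 libraries, so neuronal RNA was present in every one. The symbols of 22 of the 31 Hox genes were written in capitals without the letter that separates the zebrafish duplicates. Genes sharing a symbol are therefore given with their Ensembl identifier.

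Total Hox expression differed far more between fish of one genotype than between genotypes. The summed level was 3.19, 3.16 and 69.0 CPM in tert-/- libraries 1 to 3. It was 20.7, 132.8, 56.1, 1.90 and 65.5 CPM in tert+/- libraries 1 to 5, and 67.1, 107.9, 71.9, 27.6 and 2.19 CPM in wild-type libraries 1 to 5. The highest library exceeded the lowest 21.8-fold in tert-/- brains, 70.1-fold in tert+/- brains and 49.4-fold in wild-type brains. The ranges of the 3 genotypes overlapped, with each holding at least 1 library under 4 CPM and at least 1 over 60 CPM. The genotype means were 25.1 ± 38.0 CPM in tert-/-, 55.4 ± 50.4 CPM in tert+/- and 55.3 ± 41.2 CPM in wild type (SD). In bulk RNA, fewer cells that express a gene and less RNA per cell cannot be told apart.

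**Figure D1:**
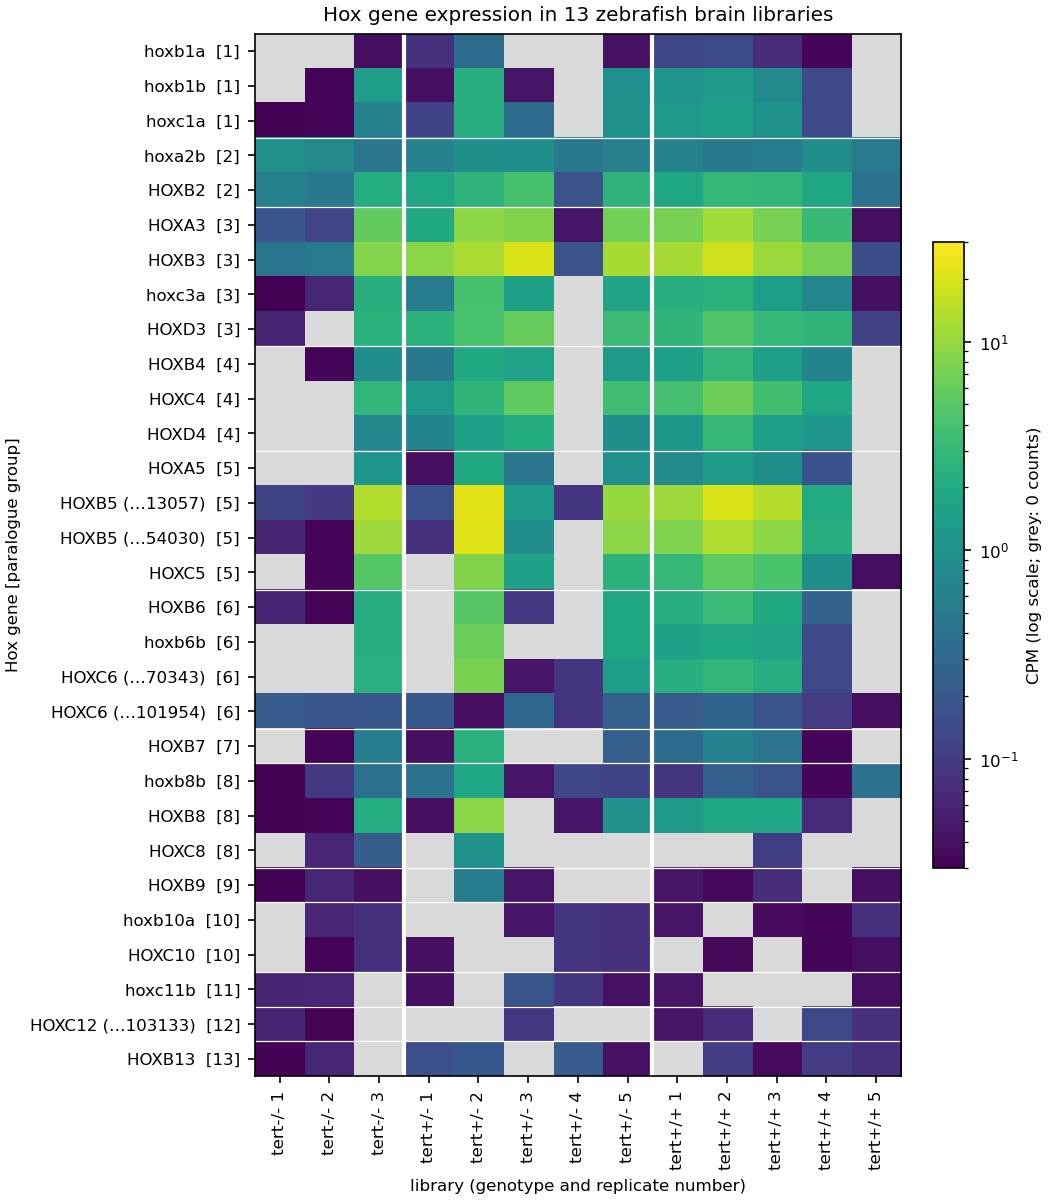
CPM of 30 of the 31 Hox genes (rows, by paralogue group) in the 13 brain libraries (columns, by genotype, with tert+/+ as the wild type). Colour gives CPM on a log scale and grey marks 0 counts. The columns of tert-/- 1 and 2, tert+/- 4 and tert+/+ 5 are dark or grey in nearly all rows, and tert+/- 1 and 3 are brighter in paralogue groups 2 to 4 than from group 5 on, although genes of group 5 reach 1.57 CPM in tert+/- 3.

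The libraries also differed in which paralogue groups were expressed. In 4 libraries (tert-/- 1 and 2, tert+/- 4 and wild type 5) no Hox gene reached 1 CPM, and 7 to 17 of the 31 genes had 0 counts. Their highest Hox gene was hoxa2b, at 0.961, 0.766, 0.485 and 0.507 CPM in that order. In 6 libraries (tert-/- 3, tert+/- 2 and 5, wild type 1 to 3) 15 to 21 genes reached 1 CPM, with members on both sides of paralogue group 4. The remaining 3 libraries (tert+/- 1 and 3, wild type 4) expressed mainly the anterior genes. These descriptions were made after the values were seen, and no test was made between such libraries.

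The split between anterior and posterior genes can be read from the share of Hox counts in paralogue groups 1 to 4 (13 genes). That share was 77.7%, 70.7% and 40.7% in tert-/- libraries 1 to 3, the first 2 of which rest on only 103 and 99 Hox counts. It was 94.2%, 34.0%, 91.0%, 51.2% and 54.5% in tert+/- libraries 1 to 5, of which the fourth rests on 43 counts. It was 53.9%, 52.4%, 48.1%, 76.4% and 62.5% in wild-type libraries 1 to 5, of which the fifth rests on 56 counts. The Wilson 95% intervals were 91.8 to 95.9% in tert+/- 1 and 32.4 to 35.6% in tert+/- 2, so these 2 fish of one genotype, with 515 and 3425 Hox counts, differed beyond counting error. Intervals cover counting error only, not differences between fish. The tert-/- and wild-type ranges overlapped, as did those of tert+/- and wild type.

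**Figure D2:**
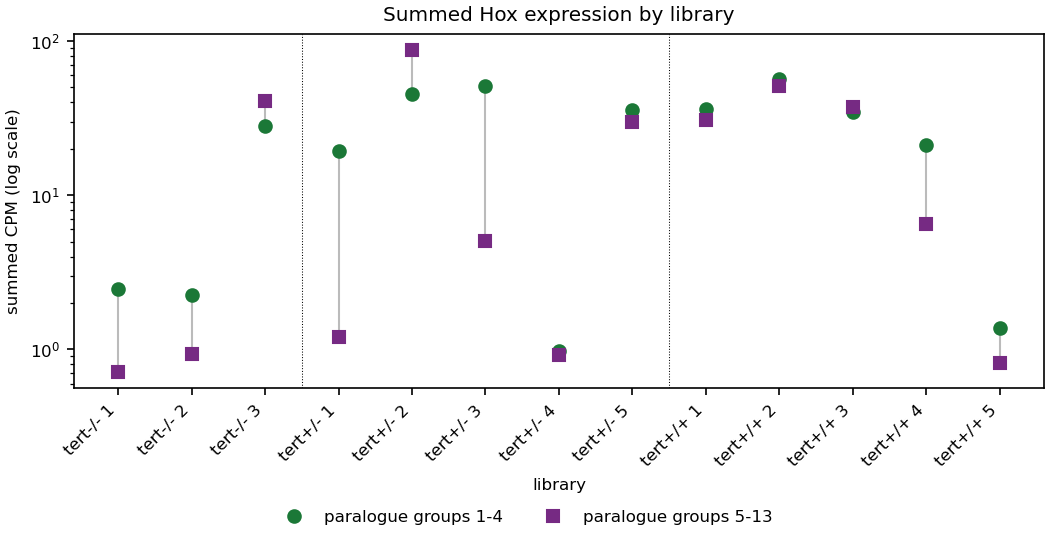
Summed CPM (log scale) of the genes of paralogue groups 1 to 4 (circles, 13 genes) and 5 to 13 (squares, 18 genes) in each library, with a grey line joining both values. Both sums are at or under 2.48 CPM in tert-/- 1 and 2, tert+/- 4 and tert+/+ 5, and the widest gap is in tert+/- 1, with 19.5 CPM for groups 1 to 4 and 1.21 CPM for groups 5 to 13.

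Per kilobase, paralogue groups 5 and 3 were the most abundant, and their order depended on the measure. Summed over the 13 libraries, group 5 held 42.2% of the summed level, group 3 held 17.6%, group 6 held 12.9% and group 4 held 12.8%. Without division by length, group 3 came first with 35.3% and group 5 held 33.2%. The median over libraries was likewise higher for group 3, at 4.91 CPM per kilobase, than for group 5, at 3.70, since the share of group 5 in the Hox counts ran from 1.36% to 44.0% between libraries. Groups 9 to 13 each held under 0.3% (0.106 to 0.266%). By cluster letter, B genes held 61.5%, C genes 24.2%, A genes 8.58% and D genes 5.75%, with 15, 10, 4 and 2 kept genes. A letter pools zebrafish duplicates, such as hoxb1a and hoxb1b, so it need not stand for a single cluster. The number of kept genes and the level both enter these shares.

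Group 5 had the highest mean in each genotype but the highest median in wild type alone, and the spread between fish was of the size of the levels. Group 5 averaged 6.93 ± 11.8 CPM per kilobase in tert-/-, 11.0 ± 15.4 in tert+/- and 12.9 ± 11.0 in wild type (SD). In tert-/- brains the mean of group 5 rests on library 3 (20.6 CPM per kilobase), and the medians were 0.840 for group 2, 0.181 for group 3 and 0.107 for group 5. The medians of groups 3 and 5 were 6.31 and 3.42 in tert+/- brains and 5.75 and 14.9 CPM per kilobase in wild type. Group 3 averaged 1.75 ± 2.73 CPM per kilobase in tert-/-, 5.55 ± 3.72 in tert+/- and 5.10 ± 3.47 in wild type. Group 4 averaged 1.15 ± 1.98 in tert-/-, 3.52 ± 2.68 in tert+/- and 4.31 ± 3.33 CPM per kilobase in wild type. Group 6 averaged 1.98 ± 3.15 in tert-/-, 3.96 ± 6.39 in tert+/- and 3.44 ± 2.98 CPM per kilobase in wild type. The ranges of mean ± SD of these 4 groups overlapped in each genotype.

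**Figure D3:**
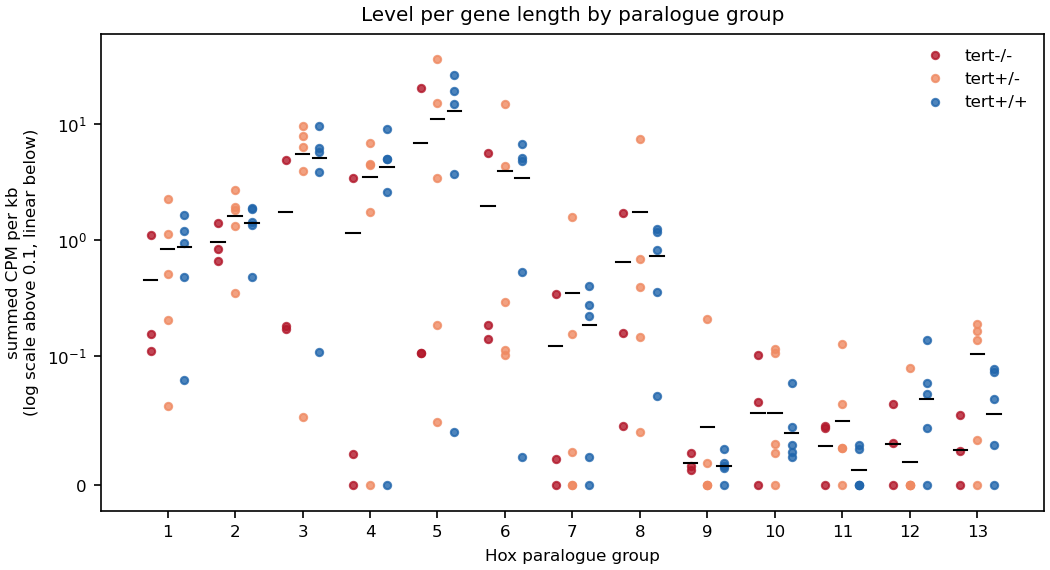
Summed CPM per kilobase of gene length by Hox paralogue group (log scale above 0.1, linear below), with 1 point per library coloured by genotype and a black bar at each genotype mean (n = 3 tert-/-, 5 tert+/- and 5 tert+/+). Points of 1 genotype spread over much of the axis in groups 3 to 6, where the genotype means peak at group 5, and no point of groups 9 to 13 exceeds 0.209.

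In paralogue group 1, which acts earliest in hindbrain segmentation, hoxb1b was the highest per kilobase. It had 0, 0.0319 and 1.44 CPM in tert-/- libraries 1 to 3, and 0.0402, 2.37, 0.0448, 0 and 0.973 CPM in tert+/- libraries 1 to 5, against 1.09, 1.37, 0.792, 0.137 and 0 CPM in wild-type libraries 1 to 5. It was near 0 in tert+/- 1 and 3 (1 count each), where most genes of groups 2 to 4 were expressed. The low libraries included all those with a low Hox sum. The locus of hoxb1b in RefSeq spans hoxb5b and hoxb6b. The counts were made per Ensembl gene, and whether reads of these genes enter those of hoxb1b was not tested.

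In paralogue group 2, HOXB2 was the highest. It had 0.620, 0.479 and 2.13 CPM in tert-/-, 1.81, 2.67, 4.03, 0.176 and 2.72 CPM in tert+/-, and 1.83, 3.02, 2.85, 1.75 and 0.390 CPM in wild-type libraries. The low libraries were those with a low Hox sum. The other member, hoxa2b, which in zebrafish helps to give the hyoid arch its identity, stood apart from the family. It had 0.961, 0.766 and 0.466 CPM in tert-/-, 0.643, 0.931, 0.940, 0.485 and 0.608 CPM in tert+/-, and 0.654, 0.491, 0.540, 0.891 and 0.507 CPM in wild-type libraries. That is 11 to 31 counts in every library, with tert-/- 1 the highest although its Hox sum was among the lowest.

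Paralogue group 3 acts in the posterior rhombomeres, and its highest member HOXB3 was expressed in all libraries. It had 0.434, 0.511 and 8.35 CPM in tert-/-, 9.12, 12.3, 20.3, 0.176 and 12.2 CPM in tert+/-, and 11.9, 18.4, 10.6, 7.23 and 0.156 CPM in wild-type libraries. The highest library was tert+/- 3, in which the posterior Hox genes were low. HOXD3 had 0.0620, 0 and 2.45 CPM in tert-/-, 2.53, 4.11, 5.96, 0 and 3.40 CPM in tert+/-, and 2.75, 4.63, 2.95, 2.74 and 0.117 CPM in wild-type libraries. The same 4 libraries were low for both genes, and the genotypes overlapped.

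Genes of paralogue group 4 mark the posterior end of the hindbrain and are known targets of retinoic acid signalling. HOXC4 was the highest, with 0, 0 and 2.83 CPM in tert-/-, 1.25, 2.75, 5.51, 0 and 3.57 CPM in tert+/-, and 3.88, 6.45, 3.75, 1.85 and 0 CPM in wild-type libraries. HOXD4 had 0, 0 and 0.738 CPM in tert-/-, 0.683, 1.47, 2.104, 0 and 0.932 CPM in tert+/-, and 1.18, 3.02, 1.44, 1.13 and 0 CPM in wild-type libraries. HOXB4 had 0, 0.0319 and 0.893 CPM in tert-/-, 0.482, 2.02, 1.61, 0 and 1.30 CPM in tert+/-, and 1.48, 2.84, 1.48, 0.685 and 0 CPM in wild-type libraries. For HOXD4 and HOXC4 a value of 0 allows up to 3 counts a library, and the 4 libraries at 0 were the same for both.

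The 2 genes named HOXB5, in paralogue group 5, were the highest Hox genes per kilobase, at 4.09 (ENSDARG00000013057) and 3.55 (ENSDARG00000054030) CPM per kilobase over the 13 libraries. The first had 0.124, 0.0958 and 13.5 CPM in tert-/-, 0.161, 22.4, 1.30, 0.0881 and 10.2 CPM in tert+/-, and 10.9, 20.3, 14.1, 2.06 and 0 CPM in wild-type libraries. Compared with HOXB3, it was low in 2 further libraries, tert+/- 1 (4 counts, against 227 of HOXB3) and tert+/- 3 (29 counts, against 453 of HOXB3). The gene HOXB6 of paralogue group 6 showed the same libraries low. It had 0.0620, 0.0319 and 2.21 CPM in tert-/-, 0, 5.00, 0.0896, 0 and 1.82 CPM in tert+/-, and 2.27, 3.37, 1.98, 0.274 and 0 CPM in wild-type libraries. The second gene named HOXC6 (ENSDARG00000101954) had 1 to 8 counts in every library and had 1 count both in tert+/- 2 and in wild type 5. The other HOXC6 gene (ENSDARG00000070343) had 195 counts and 0 counts in these libraries.

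Genes of paralogue groups 7 and 8, known from the spinal cord, were expressed most in tert+/- 2. HOXB7 had 0, 0.0319 and 0.544 CPM in tert-/-, 0.0402, 2.48, 0, 0 and 0.243 CPM in tert+/-, and 0.349, 0.631, 0.432, 0.0343 and 0 CPM in wild-type libraries. HOXB8 had 0.0310, 0.0319 and 2.13 CPM in tert-/-, 0.0402, 8.92, 0, 0.0441 and 1.05 CPM in tert+/-, and 1.35, 1.72, 1.801, 0.0685 and 0 CPM in wild-type libraries. The library tert+/- 2 thus had 230 counts of HOXB8 where no other had more than 55. By contrast hoxb8b had 0.0310, 0.0958 and 0.388 CPM in tert-/-, 0.402, 1.78, 0.0448, 0.132 and 0.122 CPM in tert+/-, and 0.0873, 0.245, 0.180, 0.0343 and 0.390 CPM in wild-type libraries. It shared the peak in tert+/- 2 but reached 10 counts in wild type 5, a library with only 56 Hox counts in all. Among the others there were 13 counts of hoxa2b and 10 of HOXB2.

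The posterior groups 9 to 13 were close to the detection limit. HOXB9 had 1, 2 and 1 counts in tert-/-, 0, 14, 1, 0 and 0 counts in tert+/-, and 1, 1, 2, 0 and 1 counts in wild-type libraries. Its 14 counts in tert+/- 2 were again the highest. The genes hoxb10a, HOXC10, hoxc11b and HOXC12 (ENSDARG00000103133) had 11 to 14 counts over all 13 libraries, with at most 4 in any one. HOXB13, known in mouse for its role at the tail end of the axis, had 1, 2 and 0 counts in tert-/-, 4, 5, 0, 5 and 1 counts in tert+/-, and 0, 3, 1, 3 and 2 counts in wild-type libraries. These counts did not move with the Hox sum, as tert+/- 4, with only 43 Hox counts in all, had 5 of them. Differences between genotypes were not detectable at this depth.

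Most Hox genes varied together across the 13 libraries. With log2 CPM, 13 of the 22 genes tested below had a Pearson r over 0.9 with the mean of the other 21, with HOXA5 (0.985) the highest. Weakly correlated genes included hoxa2b (−0.06) and hoxb8b (0.336). Pairs within paralogue groups 5 to 13 had a median r of 0.934 (45 pairs), pairs within groups 1 to 4 of 0.873 (66 pairs) and pairs between the sets of 0.748 (120 pairs). These coefficients are descriptions over 13 libraries without a p, since every gene shares the same libraries and depths. Neighbouring genes of a cluster might also share reads, which an overlap of loci alone does not show. The loci of hoxb3a and hoxc3a in RefSeq span 3 and 5 other Hox genes. Those of hoxa3a and hoxb1b span 2 each, and that of hoxd3a spans 1. The r of hoxb1b was 0.990 with hoxb6b, which its locus spans, and 0.683 with HOXB2. The part of shared reads was not tested. The kit is not known to mark strand.

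To ask whether telomerase loss changed Hox expression, 22 of the 31 genes had enough counts for the edgeR quasi-likelihood test. In tert-/- against wild-type brains, 0 of 22 Hox genes passed an adjusted p of 0.05, as did 0% of all 20064 genes tested. At an unadjusted p of 0.05, 0 Hox genes passed, against 2.14% of all genes, and DESeq2 called 0 Hox genes and 0.0593% of all genes. The fitted change was below 0 for 21 of 22 Hox genes, against 49.8% of all genes, with a median log2 fold change of −0.93 for the Hox genes and 0.00049 for all genes. With limma voom that median of the Hox genes was −2.27. The edgeR test reports no SE. The SE given here is the absolute log2 fold change divided by the square root of the F statistic. For a single gene it was 0.32 to 1.79 (median 1.45). In none of the 22 genes did the tert-/- and wild-type libraries separate, against 1.11% of genes that separated in the lower and 1.06% in the higher direction.

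Most of the 22 genes varied together, and few Hox counts were found in 2 of 3 tert-/- libraries and in 1 of 5 wild-type libraries. Without tert-/- 1 the median was −0.42, with 17 of 22 genes lower, and without tert-/- 2 it was −0.42, again with 17 lower. Without tert-/- 3 it was −5.11, and without wild type 2 it was −0.58. Genes with low p values included HOXD4 (log2 fold change −2.53 ± 1.41 SE, edgeR adjusted p = 1) and HOXB4 (−2.13 ± 1.37, adjusted p = 1). The highest gene, HOXB5 (ENSDARG00000013057), had −1.06 ± 1.73, and hoxa2b, the single gene above 0, had 0.25 ± 0.32.

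In tert+/- against wild-type brains, 0 of 22 Hox genes passed, as did 0% of all genes, and 0 had an unadjusted p under 0.05, against 7.74% of all genes. DESeq2 called 0 Hox genes and 0.12% of all genes. Of the 22 genes, 10 were below 0, against 50.6% of all genes, and the median log2 fold change was 0.077 (median SE 1.14). With limma voom the direction turned, with 19 of 22 genes below 0 and a median of −0.29. No gene separated the groups, which 0.847% of genes did in the lower and 0.852% in the higher direction. The lowest p values were those of hoxb8b (1.41 ± 0.91, edgeR adjusted p = 0.715), hoxa2b (0.22 ± 0.29, adjusted p = 0.863) and HOXB7 (0.94 ± 1.29, adjusted p = 0.874). Both hoxb8b and HOXB7 rest on tert+/- 2, with 46 and 64 counts there and at most 10 and 6 in the other tert+/- libraries. Without tert+/- 2 the value of HOXB7 was −1.92, and hoxb8b had too few counts to be tested. The number of genes below 0 changed with single fish. Without wild type 2, 0 of 22 genes were below 0 (median 0.39). Without wild type 5, 17 of 22 were below 0 (median −0.24), and without tert+/- 2, 17 of 21 were (median −0.79).

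In tert-/- against tert+/- brains, 0 of 22 Hox genes passed, as did 0% of all genes, and 0 had an unadjusted p under 0.05, against 4.62% of all genes. DESeq2 called 0 Hox genes and 0.0723% of all genes. The change was below 0 for 21 of 22 genes, against 50.6% of all genes, with a median of −1.22 (median SE 1.45). No gene separated the groups, against 1.23% of all genes in the lower and 1.17% in the higher direction. HOXD4 (−2.15 ± 1.41) and HOXD3 (−1.98 ± 1.34) were among the genes with the lowest p values, each with an edgeR adjusted p = 0.975. Without tert+/- 2 the median was −0.032, with 11 of 21 genes below 0, and without tert-/- 3 it was −5.41. The comparisons share fish, so their values are not independent of each other.

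**Figure D4:**
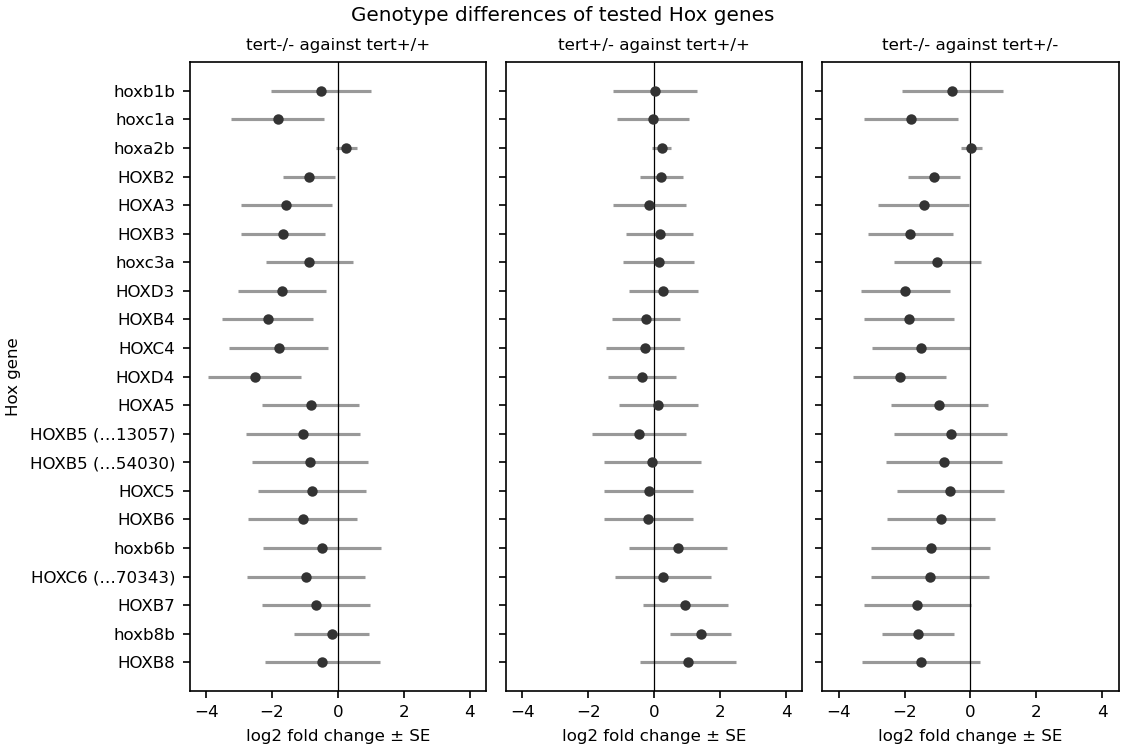
Log2 fold change from edgeR for 21 of the 22 tested Hox genes (rows, by paralogue group), ± an SE derived from the F statistic. The panels are tert-/- against tert+/+, tert+/- against tert+/+ and tert-/- against tert+/- brains. Most intervals of 1 SE in the left and right panels lie to the left of or across 0, and hoxa2b is the narrowest in each panel, with an SE of 0.29 to 0.32.

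The spread of the Hox genes between fish of one genotype was compared with that of all tested genes within 0.5 log2 CPM of the same mean level. The median SD of log2 CPM over the 22 Hox genes was 2.41 in tert-/-, 2.36 in tert+/- and 2.06 in wild type, against 0.48 in tert-/-, 0.58 in tert+/- and 0.48 in wild type for genes of like level. Of the 22 Hox genes, 17 exceeded the 95th percentile of such genes in tert-/-, 19 in tert+/- and 18 in wild type. The widest spread was that of the HOXB5 gene ENSDARG00000054030, at 3.76 in tert-/- and 3.55 in tert+/-, and of ENSDARG00000013057 at 3.33 in wild type. At the other end hoxa2b had an SD of 0.48 in tert-/-, 0.37 in tert+/- and 0.32 in wild type, against medians of 0.46, 0.55 and 0.455 for like genes.

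**Figure D5:**
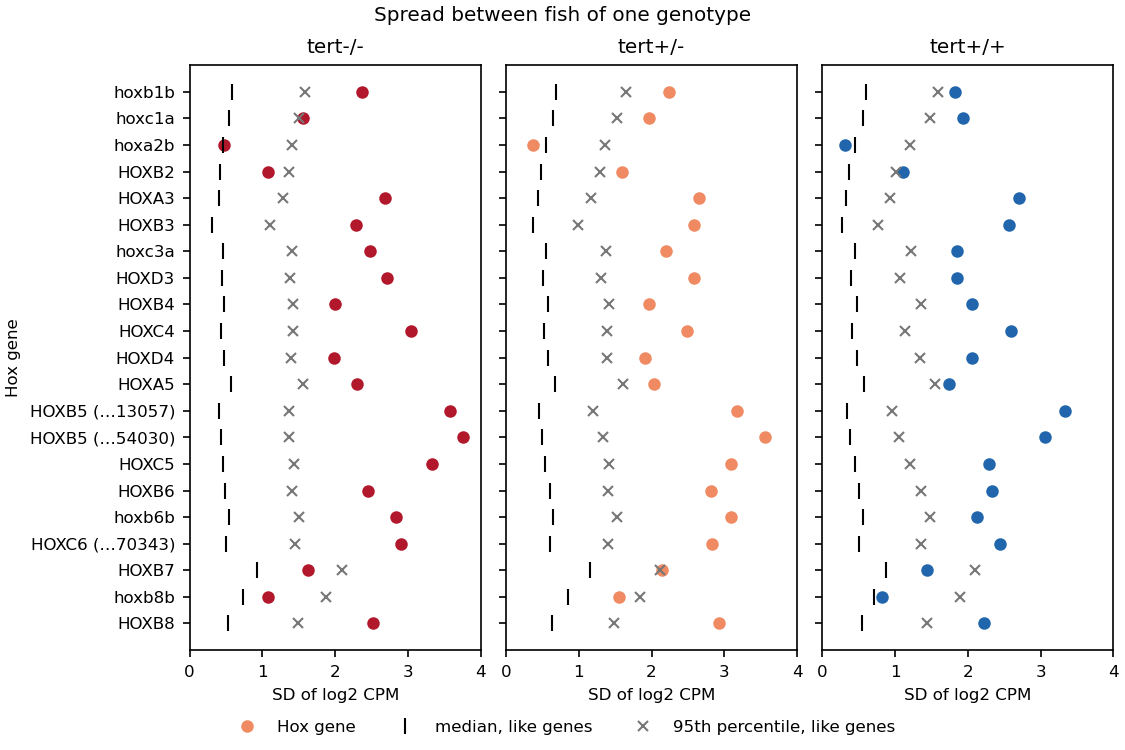
SD of log2 CPM between fish of one genotype for 21 of the 22 tested Hox genes (dots; rows by paralogue group), with the median (bar) and the 95th percentile (cross) of tested genes of like mean level. The dots lie right of the crosses for 17 genes in tert-/-, 19 in tert+/- and 18 in tert+/+, whereas hoxa2b lies left of them in all 3 panels.

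Genes that act with or upstream of the Hox family were read from 4 lists, whose symbols were matched only in part. Found were 9 of 14 TALE cofactors, 5 of 10 retinoic acid receptors, 16 of 25 Polycomb and trithorax genes and 10 of 19 patterning factors. Listed genes that were not found were not read. The 9 measured TALE cofactors (the pbx, meis and pknox families, which bind DNA with Hox proteins) had a summed level of 279.2 to 331.3 CPM in tert-/-, 288.6 to 347.9 in tert+/- and 304.2 to 342.5 CPM in wild-type libraries. Their level, as the mean of centred log2 CPM, was −0.18 to 0.025 in tert-/-, −0.11 to 0.076 in tert+/- and 0.056 to 0.092 in wild-type libraries. By this level tert-/- and wild type did not overlap, although their sums did. Of all single genes, 1.11% separated in that direction, and no such share was computed for list levels, of which several were read. In tert-/- relative to wild type 9 of 9 cofactor genes were lower (median −0.082), against 49.8% of all genes. Other lists, read below, also went 1 way in this comparison. Telencephalon (6 of 6) and midbrain genes (4 of 4) were lower, and cerebellum (7 of 7) and erythrocyte genes (5 of 5) were higher. Polycomb and trithorax genes were split, with 8 lower and 8 higher. Of the cofactors, 0 of 9 passed in any comparison, and the lowest p was that of pbx1b for tert+/- relative to wild type (−0.58 ± 0.25, edgeR adjusted p = 0.627). Of 5 retinoic acid receptors, which relay the signal that sets Hox borders, 0 passed and rarab had the lowest p (−0.18 ± 0.11 for tert+/- relative to wild type, edgeR adjusted p = 0.713). Of 16 Polycomb and trithorax genes, which keep Hox genes silent or active, 0 passed and cbx7a had the lowest p (0.56 ± 0.21 for tert+/- relative to wild type, edgeR adjusted p = 0.602). Of 6 tested patterning factors of the hindbrain and posterior axis, 0 passed and gdf11 had the lowest p (−0.66 ± 0.25 for tert+/- relative to wild type, edgeR adjusted p = 0.602).

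The Hox level of a library was defined by centring the log2 CPM of each of the 22 genes on its mean over all libraries and averaging these values. The patterning factors above had the highest r of any list with this level, at 0.81 over 13 libraries. Of the tested members only GBX1 (0.848) had a high r by itself. Over the 9 libraries with more than 10 CPM of Hox expression the r of GBX1 was 0.24. The other members had, over all 13 libraries, 0.28 (NR2F2), 0.25 (gdf11), 0.017 (VGLL3), −0.18 (GBX2) and −0.38 (EVX2). Other markers of the brainstem and spinal cord were split. Of the 32 symbols listed for them, 23 were found. Of 19 such genes tested, 0 passed in any comparison. In tert-/- against wild type 13 of 19 were lower (median −0.26), in tert+/- against wild type 5 of 19 (median 0.18) and in tert-/- against tert+/- 14 of 19 (median −0.33). The lowest p was that of tlx2, a homeobox gene, in tert-/- against tert+/- brains (−1.57 ± 0.75, edgeR adjusted p = 0.975). The level of this list had a Pearson r of 0.65 with the Hox level over 13 libraries. Of the 19 genes, 7 had an r over 0.5, among them DBH (0.853), PHOX2A (0.845), tlx2 (0.733), lbx1b (0.674) and urp1 (0.661), and 7 had an r below 0. The summed level was 229.6 to 322.8 CPM in tert-/-, 217.5 to 339.0 in tert+/- and 222.4 to 316.3 CPM in wild-type libraries. GATA3 and GLRA1 made up most of the highest sum, with 215.3 and 78.3 of 339.0 CPM in tert+/- 4. The mean of centred log2 CPM, which weighs each gene alike, was −0.67 to −0.032 in tert-/-, −0.62 to 0.64 in tert+/- and −0.21 to 0.27 in wild-type libraries. It was lowest in tert-/- 1, followed by tert+/- 4. Among genes that had an r near or below 0, the glycine receptor gene GLRA1 (r = 0.0042) was at 52.5 to 90.9 CPM and GATA3 (r = −0.53) at 104.9 to 215.3 CPM over all libraries, and GATA3 was highest in tert+/- 4, the library with the fewest Hox counts. The motor neuron gene MNX1 was at 0 to 0.245 CPM. The part of the amount of posterior tissue in the Hox values was not tested.

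Lists of other brain regions also varied between fish. They too were matched only in part, with 6 of 15 telencephalon, 7 of 15 hypothalamic, 7 of 12 cerebellum and 4 of 10 midbrain symbols found. For muscle 11 of 23, for photoreceptors 19 of 25 and for erythrocytes 6 of 9 symbols were found. Each list of a brain region had a lower r than the brainstem and spinal cord list (0.65), although telencephalon genes came near it. The r with the Hox level was 0.55 for 6 telencephalon genes, 0.41 for 7 hypothalamic genes, 0.23 for 7 cerebellum genes and −0.14 for 4 midbrain genes. Summed cerebellum genes ranged over 429.1 to 2448 CPM in tert-/-, 320.3 to 2378 CPM in tert+/- and 590.1 to 1491 CPM in wild-type libraries. Genes of muscle (−0.17), photoreceptors (−0.18) and erythrocytes (−0.55), which mark tissue outside the brain or blood, had r values below 0. Some libraries stood apart in these lists. Photoreceptor genes summed to 741.9 CPM in wild type 5, a library with few Hox counts, to 334.6 CPM in tert+/- 3 and to 55.2 CPM in wild type 1, against 10.4 to 17.3 CPM in the other libraries. Hypothalamic genes summed to 2.54 CPM in tert-/- 1, also with few Hox counts, and to 11.0 CPM in tert+/- 1, against 18.3 to 387.7 CPM in the others. All 16 tested photoreceptor genes were lower in tert-/- than in wild type, against 49.8% of all genes. Of them, 8 had an unadjusted edgeR p under 0.05, against 2.14%. Genes high only in the libraries with large photoreceptor sums, none of them tert-/-, could pass the filter through these, so this direction is not independent of the filter. All 12 tested muscle genes were higher in tert+/- than in wild type, where 50.6% of all genes were lower. Of the 12, 8 had an unadjusted edgeR p under 0.05, against 7.74%. Muscle genes summed to 826.2 CPM in tert+/- 3, and tert+/- 2 (154.9 CPM) lay within the wild-type range (88.5 to 320.2 CPM). None of these lists had a gene that passed an adjusted p of 0.05 in any comparison, and their part in the Hox values was not tested.

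The genes outside the family whose log2 CPM followed the Hox level best over the 13 libraries were cartl (r = 0.907), vipb (0.895), pvalb8 (0.892) and si:ch211-125c23.3 (0.860). They were followed by DBH (0.853), PMP22 (0.849), GBX1 (0.848), stm (0.848), PHOX2A (0.845) and six4b (0.833). Of 18838 genes compared, 12 had an r over 0.8 and 0 an r under −0.8, and these values are descriptions without a p. DBH encodes the enzyme that makes noradrenaline and PHOX2A a factor of noradrenergic and cranial motor neurons. PHOX2A had 0.186, 0.287 and 1.67 CPM in tert-/-, 2.21, 2.75, 4.07, 0.264 and 3.04 CPM in tert+/-, and 2.05, 3.19, 1.48, 2.09 and 0.0781 CPM in wild-type libraries. Like HOXB3, it was highest in tert+/- 3 and near 0 in the 4 libraries with few Hox counts. Over the 9 libraries with more than 10 CPM of Hox expression its r with the Hox level was −0.00482, against 0.856 for pvalb8 and 0.749 for DBH.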

How the data were processed

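Brain RNA of 13 fish was sequenced from total RNA with the TruSeq RNA kit, version 2. The authors' processing notes name bcl2fastq 1.8.4, STAR 2.4.1d, featureCounts 1.4.6-p4 and build GRCz10. The annotation release is not given in the sources used here. The deposited counts are raw reads per Ensembl gene, with 22008289 to 32380953 per library. The deposited RPKM values divide these counts by length and a library total. The totals had been repeated down the table, which explained 100% of 186413 values within 0.2%, against 8.16% with each library's own total. RPKM served only to recover gene lengths.

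Names came from a table of Ensembl identifiers, which gave a symbol to 26269 genes (81.8%). Genes were filtered with filterByExpr (minimum count 10, by genotype). All 13 libraries entered 1 fit in edgeR 4.0.16 (R 4.3.3, TMM factors), which was tested by 2-sided quasi-likelihood, and p values were adjusted (Benjamini-Hochberg) over 20064 genes. SE values given with edgeR were derived from the fold change and the F statistic. Log2 CPM had a prior count of 2. DESeq2 1.42.0, limma voom 3.58.1, RLE size factors, no filter, fits of the compared groups only and leaving out each library were the alternatives. The procedure was tested on simulated data, with changes planted only in genes of higher mean counts than most Hox genes had here. That simulation does not show what could be detected in most Hox genes. Per-library values are given for the highest gene per length in paralogue groups 1 to 9 and 13. They are also given for any gene called and the 3 lowest p values of each comparison. Genes of groups 10 to 12 are given only by their totals and highest count. One gene is named per list, by lowest p, besides the 10 genes most like the Hox level. A few other genes were chosen after their values were seen. The members and lists were chosen with earlier results of these data known. Sequences and coordinates were not used here, and RefSeq (assembly GRCz12tu) served only for which loci overlap. No source ties fish to a tank or clutch, so p values measure the spread between these fish. One gene is not reported here singly but is counted in the totals.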

Additional observations from a re-analysis of the deposited data

Results flagged for a closer look

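In tert+/- brains, library 2 lay far above the other 4 libraries for 5 posterior Hox genes, by Dixon's gap test with a critical value of 0.71 for 5 samples. HOXB8 had 8.92 CPM in tert+/- 2, against 0 to 1.05 CPM in the others. HOXC6 (ENSDARG00000070343) had 7.56 CPM there, against 0 to 1.42 CPM. hoxb6b had 6.44 CPM, against 0 to 1.82 CPM, HOXB7 had 2.48 CPM, against 0 to 0.243 CPM, and hoxb8b had 1.78 CPM, against 0.0448 to 0.402 CPM. These were 5 of 50 groups of 5 fish examined. Chance would flag about 1 in 20 such groups if the values were normally distributed. These CPM values, many near 0 with a few high ones, are not, so the rate for them is not known. The genes are also not independent of each other. The cause was not tested.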

How the results depend on the processing

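No Hox gene passed an adjusted p of 0.05 under any alternative run. The number of all genes passing was 0 in edgeR (429, 1553 and 927 at an unadjusted p under 0.05) in each comparison, against 16 (tert-/- against wild type), 28 (tert+/- against wild type) and 18 (tert-/- against tert+/-) with DESeq2, and it ranged over 0 to 1, 0 to 5 and 0 to 1 in that order when 1 library was left out. With 1 library left out, the median log2 fold change of the Hox genes ranged from −5.11 to −0.42, from −0.79 to 0.39 and from −5.41 to −0.032 in the same order. HOXB7 in tert+/- against wild type turned to −0.42 with limma voom and to −1.92 without tert+/- 2 (range −1.92 to 1.46). With voom the median of the Hox genes was −2.27 in tert-/- against wild type and −0.29 in tert+/- against wild type, where 19 of 22 genes were then below 0. As a coefficient of variation of CPM, the median spread was 165.1% in tert-/-, 122% in tert+/- and 81.9% in wild type. The cause of these differences was not tested. No paired analysis was possible because the labels give no replicate numbers that fish of different genotypes share. Depth limits paralogue groups 9 to 13 and the 4 libraries with 43 to 103 Hox counts.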
